A study of Mus musculus with 6 samples.

Results

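Branched-chain amino acid and propionate breakdown was followed through 10 genes, Bcat2, Bckdha, Bckdhb, Bckdk, Dbt, Pcca, Pccb, Mcee, Mut and Mmaa, chosen by symbol among the 52550 mouse genes of the table, and each was found on a single row. Mcee and Pcca are also on a list that the study picked from these same samples, so their direction here is not independent evidence. RNA of skeletal muscle from 3 FLExDUX4 and 3 wild-type (WT) male littermates was sequenced with QuantSeq, which reads the 3′ end of polyadenylated transcripts, about 1 read a transcript whatever its length. FLExDUX4 mice were hemizygous at the Rosa26 locus for a transgene of human DUX4 that sits inverted between lox sites, on a C57BL/6-derived background. They carried no Cre, so DUX4 came only from leaky, uninduced expression. The mice received no treatment that the labels give. The sample labels give quadriceps and an age of 13 weeks, whereas the methods of the study name the triceps and a younger age. The DUX4 transgene itself was not analysed here.

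Leucine, isoleucine and valine are broken down mainly outside the liver, and skeletal muscle carries out most of their transamination. BCAT2 moves the amino group in mitochondria, and the branched-chain alpha-keto acid dehydrogenase complex (BCKDH) then commits the carbon skeleton to oxidation. The kinase BCKDK switches the complex off and the phosphatase PPM1K switches it on. Isoleucine and valine end as propionyl-CoA, which propionyl-CoA carboxylase (PCC), the epimerase MCEE and the cobalamin-dependent mutase MUT turn into succinyl-CoA for the tricarboxylic acid cycle. Inherited loss of these enzymes causes maple syrup urine disease, propionic acidemia and methylmalonic acidemia.

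The values used were whole read counts per genotype, taken as sums over its mice, 13110125 on genes for FLExDUX4 and 18367364 for WT. Each gene thus had 1 value per genotype. The 6 columns of single libraries match no sample label, so no test across mice was made. A ratio of the genotype totals can be set by a single mouse. The table does not say which libraries each total covers, and 1452 features at 0 in both totals had a mean above 0 in the authors' own column over all libraries, so a library may be missing from a total. Ratios are given on the log2 scale, FLExDUX4 to WT, after TMM scaling, with a 95% interval that covers counting error only. A gene was counted as higher or lower when its log2 ratio was at least 0.32 in size, a fold of 5 to 4, called the threshold here. Markers of skeletal muscle were abundant, though they cannot tell quadriceps from triceps. Acta1, encoding skeletal actin, had 466362 and 644116 counts, and the summed level of 10 muscle markers was 106680 CPM (counts scaled to equal depth, for each 1000000) in FLExDUX4 and 107150 in WT. None of those 10 markers passed the threshold with TMM scaling, and 3 were lower past it with scaling to spike-ins, added control RNAs. The 4 liver markers had 3 and 4 counts in all, and 2 of them were at 0 in both groups.

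The promoters of the 3 among these 10 genes that were past the threshold, a log2 ratio of 0.32 in size, are shown because Pcca and Mcee were lower together while Bcat2 was higher. They come from RefSeq on GRCm38.p6, plus strand, and run from 250 bases before to 50 bases after the annotated start, at chr14:122534078-122534377 for Pcca, chr7:64392372-64392671 for Mcee and chr7:45569903-45570202 for Bcat2. Capitals mark matches on either strand to CACCC (a core bound by Krüppel-like factors), GGGCGG (GC box) and CCAAT.
Pcca: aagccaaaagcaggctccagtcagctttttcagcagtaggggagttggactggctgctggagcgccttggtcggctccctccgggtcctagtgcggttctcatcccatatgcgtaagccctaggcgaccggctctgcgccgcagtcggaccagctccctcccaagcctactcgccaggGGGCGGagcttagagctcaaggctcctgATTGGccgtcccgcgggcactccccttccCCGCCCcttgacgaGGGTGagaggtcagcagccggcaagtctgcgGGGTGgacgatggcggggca
Mcee: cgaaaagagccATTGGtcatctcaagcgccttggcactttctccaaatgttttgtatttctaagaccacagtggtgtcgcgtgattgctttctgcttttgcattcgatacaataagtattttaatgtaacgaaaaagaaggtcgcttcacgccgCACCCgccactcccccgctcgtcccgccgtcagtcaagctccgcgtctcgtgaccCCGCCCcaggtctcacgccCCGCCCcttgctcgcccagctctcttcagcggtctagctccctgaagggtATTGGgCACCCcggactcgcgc
Bcat2: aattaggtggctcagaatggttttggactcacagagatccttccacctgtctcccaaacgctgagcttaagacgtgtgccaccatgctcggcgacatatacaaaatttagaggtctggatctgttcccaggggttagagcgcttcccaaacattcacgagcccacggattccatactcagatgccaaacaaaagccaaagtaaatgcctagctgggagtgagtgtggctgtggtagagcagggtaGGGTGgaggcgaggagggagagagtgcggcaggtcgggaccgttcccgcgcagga

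Pcca held 2 CACCC matches, 2 GC boxes and 1 CCAAT match. Mcee held 2 of each of these motifs. The Bcat2 promoter held 1 CACCC match and no match to either of the others. In the RefSeq table of 32851 mouse promoters of the same length, 57.5% held CACCC, 35.7% the GC box and 37.4% CCAAT on either strand. Promoters were matched for 8 of the 10 genes, all but Dbt and Mut, and of these 6 held CACCC, 4 GGGCGG and 4 CCAAT. None of the 8 held CACGTG (the E-box) or GTAAACA (a FoxO motif), which 7.15% and 3.65% of all promoters hold. The NRF1 core GCGCATGC was matched once, in Pccb, against 2.71% of all promoters. No matches to different motifs overlapped. A match is a description of these letters only.

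By level, the 10 genes spanned about an order of magnitude, and none moved by more than 2 places between the genotypes when ordered from high to low. The kinase gene Bckdk was highest, with 104 CPM in FLExDUX4 and 107 in WT, followed by Mut with 85.6 and 90.2 CPM. Mmaa was lowest in FLExDUX4, at 10.6 CPM against 10.3 in WT, and Bcat2 was lowest in WT. Neighbours whose counting intervals overlapped in WT were Pccb and Bckdha, and the low end formed by Bcat2 and Mmaa. In FLExDUX4, overlapping neighbours were Mcee and Bckdha, Dbt and Pcca, Bcat2 and Bckdhb, and Bckdhb and Mmaa. Mcee came before Pccb, and Pcca before Dbt, in WT and after it in FLExDUX4.

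**Figure D1:**
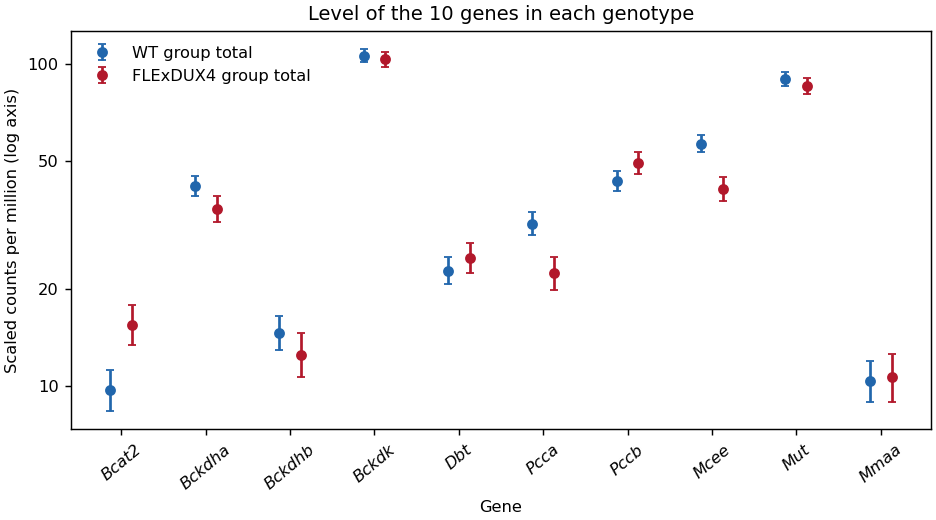
Level of each of the 10 genes, as scaled CPM on a log axis, in the WT total (blue) and the FLExDUX4 total (red), with bars for the exact Poisson 95% counting interval. Pcca and Mcee are lower and Bcat2 is higher in FLExDUX4 with bars that do not overlap, while Bckdk, Mut and Mmaa nearly coincide.

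Of the 10 genes, 2 were lower (Pcca and Mcee) and 1 was higher (Bcat2) past the threshold, and 7 stayed within it. Among the 13396 genes tested, 22.8% were lower and 22.6% higher by this rule, 45.5% in all. Among the 5045 genes whose summed counts lay in the range of these 10 genes, from 330 to 3327, the shares were 10.6% and 11.2%, so that 3 of 10 is close to the 21.7% of such genes past the fold in either direction. The counting interval left out 0 for 3 genes below (Bckdha, Pcca and Mcee) and 2 above (Bcat2 and Pccb), against 20.6% and 20.5% of all genes tested, 41.1% in all. In the count range of the 10 genes these shares were 20.6%, 21.8% and 42.4%. The median log2 ratio of the 10 genes was -0.06, against -0.001 over all genes tested. Their median size was 0.20, against 0.17 in that count range. Summed, the 10 genes had 401 CPM in FLExDUX4 and 428 in WT.

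Scaling to the ERCC and SIRV spike-ins in place of TMM shifted every ratio by -0.28 and left 5 of the 10 genes lower and 1 higher. By the same scaling 6034 of all genes tested were lower and 1729 higher, in place of 3059 and 3034. Whether the samples received equal spike-in or differ in RNA content was not tested. In a muscle homogenate, fewer cells of a type and less RNA per cell cannot be told apart.

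**Figure D2:**
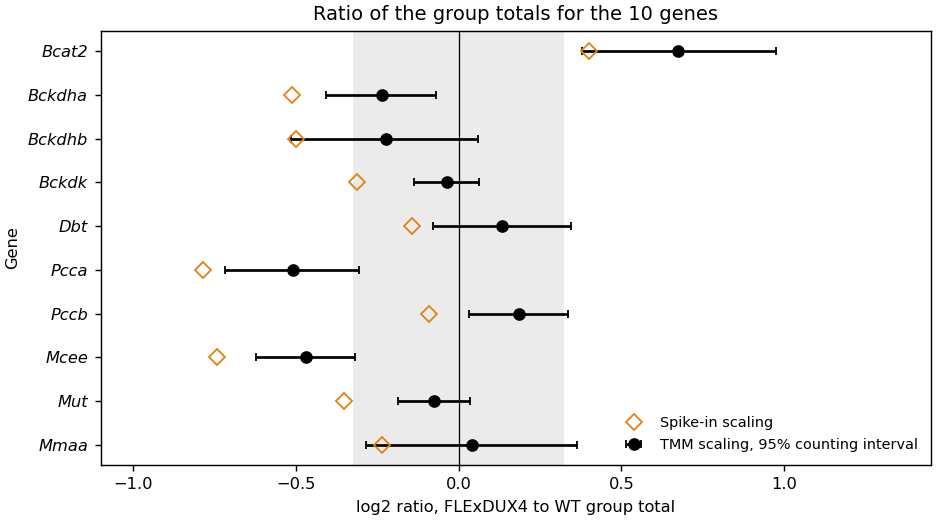
Log2 ratio of the FLExDUX4 to the WT total for each of the 10 genes with TMM scaling (black, bars for the 95% counting interval) and with spike-in scaling (orange diamonds), the grey band marking less than 0.32 in size. Pcca and Mcee lie left of the band and Bcat2 right of it under both scalings, and Dbt, Pccb and Mmaa change sign with the spike-ins.

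Pcca encodes the alpha subunit of PCC, which carries the biotin, and Pccb the beta subunit, which completes the carboxyl transfer to propionyl-CoA. Pcca (chromosome 14, 122534324 to 122891100, plus strand, protein-coding) had 291 counts in FLExDUX4 and 593 in WT, or 22.4 and 32.0 CPM. Its log2 ratio was -0.51 (interval -0.72 to -0.31). Pccb (chromosome 9, 100982032 to 101034898, minus strand) had 641 and 807 counts, or 49.4 and 43.5 CPM. That ratio was 0.18 (interval 0.03 to 0.34) with TMM scaling and -0.09 with the spike-ins.

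The subunit genes of PCC thus differed in ratio within the same totals. Pcca was on the list that the study picked from these samples, so this contrast is not independent evidence. Pcca took 31.2% of the counts of the pair in FLExDUX4 (exact binomial interval 28.3 to 34.3%) and 42.4% in WT (39.8 to 45.0%). These shares do not depend on the scaling between the genotypes. The log2 difference of Pcca relative to Pccb was -0.69 (interval -0.95 to -0.44). At its 3′ side Pcca overlaps Ggact on the opposite strand, which had 17 and 70 counts and a ratio of -1.49. Whether the counting used strand is not given in the sources used here, so the reads of these neighbours may not be fully separate. The Ggact counts are small beside those of Pcca, and their part in the Pcca ratio was not tested.

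Mcee encodes methylmalonyl-CoA epimerase, which converts the product of PCC into the form that the mutase accepts. Mcee (chromosome 7, 64392607 to 64412125, plus strand, protein-coding) had 531 counts in FLExDUX4 and 1051 in WT, or 40.9 and 56.6 CPM. The ratio was -0.47 (interval -0.62 to -0.32). No annotated gene overlaps Mcee.

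Mut encodes methylmalonyl-CoA mutase, the last enzyme of the arm. Mut (chromosome 17, 40934685 to 40961988, plus strand) had 1111 and 1674 counts, or 85.6 and 90.2 CPM, a ratio of -0.07 (interval -0.19 to 0.04), or -0.35 with the spike-ins, past the threshold. The start of Mut overlaps Cenpq on the opposite strand, which had 31 and 70 counts. Relative to Mut, Mcee differed by -0.39 on the log2 scale (interval -0.58 to -0.20). Mcee was 32.3% of the counts of Mcee and Mut in FLExDUX4 and 38.6% in WT. The share of the epimerase gene beside the mutase gene, its neighbour in the arm, was thus lower in FLExDUX4 than in WT, independent of scaling. Mcee, like Pcca, was on the list that the study picked from these samples.

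Mmaa encodes a GTPase that loads MUT with its cobalamin cofactor and protects it. Mmaa (chromosome 8, 79263598 to 79294937, minus strand) had 138 counts in FLExDUX4 and 192 in WT. The ratio was 0.04 (interval -0.29 to 0.36), so that no difference was detectable at this depth, and it was -0.24 with the spike-ins. Summed over Pcca, Pccb, Mcee and Mut, the propionate arm had 198 CPM in FLExDUX4 and 222 in WT, a ratio of -0.16 (interval -0.24 to -0.09).

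**Figure D3:**
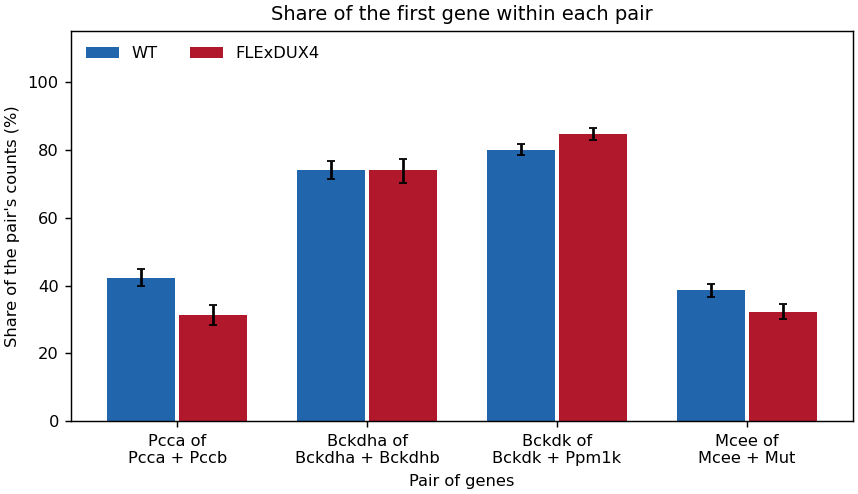
Share of the counts of a gene pair that fell on the first gene, in percent, for WT (blue) and FLExDUX4 (red), with bars for the exact binomial 95% interval. The share of Pcca is 42.4% in WT and 31.2% in FLExDUX4, whereas that of Bckdha is 74.1% and 74.0%.

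Bcat2, the mitochondrial aminotransferase of the branched-chain amino acids, stood on the other side. Bcat2 (chromosome 7, 45570153 to 45589711, plus strand, protein-coding) had 201 counts in FLExDUX4 and 180 in WT, or 15.5 and 9.70 CPM, although the FLExDUX4 total was the smaller. The ratio was 0.68 (interval 0.38 to 0.97), and 0.40 with the spike-ins. An antisense gene that overlaps its start, 0610005C13Rik, had 9 and 2 counts. Bcat1, the cytosolic isoform, had 0 counts in FLExDUX4 and 5 in WT, too few to compare.

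KLF15 is a known activator of Bcat2 transcription, and it was listed with PGC-1 alpha and PPAR alpha as a regulator of this pathway. All 3 regulator genes were higher past the threshold in FLExDUX4, a call shared by 22.6% of all genes tested. Their median ratio was 0.43, or 0.15 with the spike-ins, by which 1 was higher. Their part in the Bcat2 ratio was not tested. Klf15 had 342 and 252 counts and a ratio of 0.96 (interval 0.72 to 1.20). Ppargc1a had 1101 and 1194 counts, a ratio of 0.40 (interval 0.28 to 0.52), and Ppara had 282 and 300, a ratio of 0.43 (interval 0.19 to 0.67). The authors' mean over all libraries, times the number of samples, was 1.24 times the summed totals for Klf15 and 1.20 times for Ppara, against a median of 0.98 over all genes tested, so these totals may lack reads.

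Fat also expresses Bcat2, and most adipocyte markers were higher with TMM scaling. Of 8 adipocyte markers 5 were higher and 1 lower past the threshold, among them Cfd (1468 and 1144 counts, ratio 0.88) and Adipoq (294 and 258 counts, ratio 0.70). Lipe had 429 and 458 counts and a ratio of 0.42, and Plin1 139 and 150 counts and a ratio of 0.41. Fabp4, the most abundant, had 2929 and 3869 counts and a ratio of 0.12, or -0.16 with the spike-ins. Lep was the lower one, with 12 and 31 counts. The list median was 0.41, or 0.14 with the spike-ins, by which 3 markers were higher and 1 lower. The authors' mean, set against the totals in the same way, was 1.2 for both Cfd and Adipoq. Their summed level was 422 CPM in FLExDUX4 and 331 in WT, and none was at 0. The 5 blood markers had 1279 and 1020 CPM in sum, with 3 higher (Hbb-bs 0.36, Hba-a2 0.33 and Alas2 0.45), or 0 with the spike-ins. The globin genes have near-identical copies, so reads may be split between them. The part of fat or blood in the Bcat2 ratio was not tested.

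Of the 6 endothelial markers on the list, 4 were lower past the threshold and none was higher. Among all genes tested, 22.8% were lower and 22.6% higher. The 6 endothelial markers had 162 CPM in FLExDUX4 and 192 in WT in sum, and none was at 0. The lower ones were Kdr (632 and 1334 counts, ratio -0.56), Emcn (97 and 189, ratio -0.44), Tek (80 and 178, ratio -0.63) and Cldn5 (17 and 63, ratio -1.34). Pecam1 had 772 and 1056 and a ratio of 0.06, and Cdh5 505 and 736 and a ratio of -0.03. The endothelial genes Vwf (243 and 212 counts, ratio 0.71) and Esam (413 and 357 counts, ratio 0.73), not on the list and named after their values were seen, were higher. Of the fibroblast markers 2 of 6 were higher (Col1a1 0.53 and Lum 0.48), with 1252 and 1135 CPM in sum, and their median turned from 0.04 to -0.23 with the spike-ins, by which 0 were higher or lower. Of the Schwann cell markers 1 of 4 was higher, with 144 and 136 CPM, and their median of 0.20 was -0.08 with the spike-ins, by which 0 were higher and 1 was lower. The immune markers stood at 10.9 and 10.7 CPM in sum, with 2 of the 4 tested higher (among them Itgam, 24 and 17 counts) and 2 lower and Cd3e at 0 in WT. For these 4 genes the authors' mean over all libraries, times the number of samples, was 1.51 to 2.79 times the summed totals, so their levels and ratios are in doubt. For the 10 pathway genes the same ratio was 0.91 to 1.09. The part of these cells in the ratios was not tested.

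The BCKDH complex has a decarboxylase made of alpha and beta subunits (Bckdha, Bckdhb), a transacylase core (Dbt) and a dehydrogenase (Dld) that it shares with other complexes. Bckdha (chromosome 7, 25629946 to 25658981, minus strand) had 460 counts in FLExDUX4 and 776 in WT, or 35.5 and 41.8 CPM. Its ratio of -0.24 (interval -0.41 to -0.07) lay below 0 but within the threshold, and was -0.51 with the spike-ins. Bckdhb (chromosome 9, 83925145 to 84124240, plus strand) had 162 and 271 counts, a ratio of -0.22 (interval -0.52 to 0.06), or -0.50 with the spike-ins. Bckdha and Bckdhb kept their proportion, with Bckdha at 74.0% of the pair in FLExDUX4 (interval 70.3 to 77.4%) and 74.1% in WT (71.4 to 76.7%).

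Dbt (chromosome 3, 116513070 to 116549981, plus strand) had 325 and 424 counts, or 25.0 and 22.8 CPM. The ratio of 0.13 (interval -0.08 to 0.34) held 0, and turned to -0.14 with the spike-ins. The B3gnt8 gene overlaps the 3′ side of Bckdha on the opposite strand and had 31 and 30 counts. Other annotated genes within Bckdhb and Dbt had at most 1 count. Over its 6 genes the BCKDH list had 270 CPM in FLExDUX4 and 291 in WT, a ratio of -0.11 (interval -0.17 to -0.05), and only Ppm1k was past the threshold. With the spike-ins 4 of the 6 were lower, with a median of -0.42.

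Bckdk encodes the kinase that inactivates BCKDH by phosphorylating the alpha subunit. Bckdk (chromosome 7, 127904082 to 127910221, plus strand) had 1348 counts in FLExDUX4 and 1979 in WT, a ratio of -0.04 (interval -0.14 to 0.06) that was 0.02 when scaled to mitochondrial marker genes and -0.31 with the spike-ins. Ppm1k, which encodes the opposing phosphatase, had 241 and 493 counts, or 18.6 and 26.6 CPM, and a ratio of -0.51 (interval -0.74 to -0.29). The kinase gene thus took 84.8% of the pair in FLExDUX4 (interval 83.0 to 86.6%) and 80.1% in WT (78.4 to 81.6%). The log2 difference of Bckdk relative to Ppm1k was 0.48 (interval 0.23 to 0.73).

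The wider pathway list holds 39 genes, these 10 included, from transamination and transport to the handling of cobalamin and biotin. Of the 38 genes with enough counts, 7 were lower and 5 higher past the threshold, against 22.8% and 22.6% of all genes tested. In the count range of the 10 genes, which holds most but not all of this list, the shares were 10.6% and 11.2%. The median ratio of the 38 genes was 0.04, against -0.24 with the spike-ins. Summed, the 39 genes had 1483 CPM in FLExDUX4 and 1457 in WT. With TMM scaling the pathway as a whole stood at nearly the same level in both totals.

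**Figure D4:**
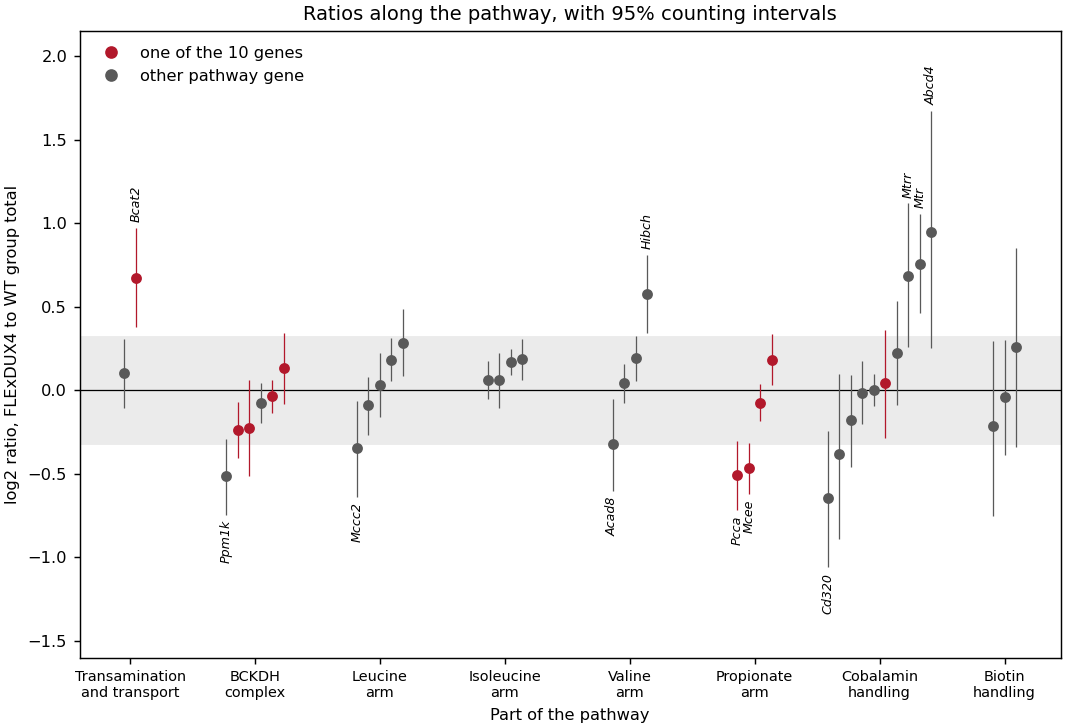
Log2 ratio of the FLExDUX4 to the WT total for the 38 pathway genes with enough counts, by part of the pathway, with bars for the 95% counting interval and a grey band for less than 0.32 in size. Red points are the 10 genes, and names mark genes past the fold whose interval leaves out 0, such as Ppm1k, Pcca and Mcee below and Bcat2, Hibch and Mtr above.

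In the leucine arm, Mccc2, which encodes the beta subunit of methylcrotonyl-CoA carboxylase, a biotin enzyme related to PCC, had 156 and 284 counts and a ratio of -0.35 (interval -0.64 to -0.06). Scaling to mitochondrial markers gave -0.29, within the threshold. With TMM scaling the other 4 genes stayed within the threshold, with a highest ratio of 0.28, and with the spike-ins 2 of the 5 were lower. All 4 isoleucine genes stayed within the threshold by both scalings. Their ratios ran from 0.06 to 0.18, with a median of 0.12.

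The valine arm held genes on both sides. Hibch, which encodes the hydrolase that frees beta-hydroxyisobutyrate from CoA, had 310 and 297 counts, or 23.9 and 16.0 CPM, and a ratio of 0.58 (interval 0.34 to 0.81), or 0.30 with the spike-ins, within the threshold. Acad8, which encodes isobutyryl-CoA dehydrogenase, had 173 and 310 counts and a ratio of -0.32 (interval -0.60 to -0.05), at the edge of the threshold. Its ratio was within the threshold, at -0.27, when scaled to mitochondrial markers. With a pseudocount of 2 it was just within, at -0.318 against a threshold of 0.322. Summed over each arm, leucine genes had 175 and 167 CPM in FLExDUX4 and WT (ratio of sums 0.07, interval -0.005 to 0.15). Isoleucine genes had 383 and 349 CPM (0.14, interval 0.08 to 0.19), and valine genes 177 and 163 (0.12, interval 0.04 to 0.20). Differences between arms were not tested, and the lower propionate sum comes from Pcca and Mcee, which the study had picked from these samples. With the spike-ins all medians were below 0, at -0.24 for leucine, -0.16 for isoleucine, -0.16 for valine and -0.55 for propionate genes.

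Cobalamin handling serves MUT in mitochondria and methionine synthase in the cytosol. Of 10 genes 2 were lower and 3 higher, a share near the 45.5% of all genes tested. Mtr, which encodes methionine synthase, had 207 and 175 counts and a ratio of 0.76 (interval 0.46 to 1.06). Mtrr, which encodes its reductase, had 98 and 87 counts and a ratio of 0.69 (interval 0.26 to 1.12). Cd320, the receptor that takes up cobalamin bound to transcobalamin, had 75 and 168 counts and a ratio of -0.64 (interval -1.06 to -0.25). Abcd4, a lysosomal transporter for cobalamin, had 42 and 31 counts and a ratio of 0.95 (interval 0.25 to 1.67). With TMM scaling the 3 biotin genes stayed within the threshold and each interval held 0, and with the spike-ins 1 was lower.

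Since all 10 enzymes work in or serve mitochondria, 10 mitochondrial markers outside the pathway were set beside them. With TMM scaling none passed the threshold, whereas with the spike-ins 5 of the 10 were lower. Their TMM ratios ran from -0.14 to 0.06, and their summed level was 4208 CPM in FLExDUX4 and 4366 in WT. Scaled to these markers, Pcca had a ratio of -0.46, Mcee of -0.42 and Bcat2 of 0.73.

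**Figure D5:**
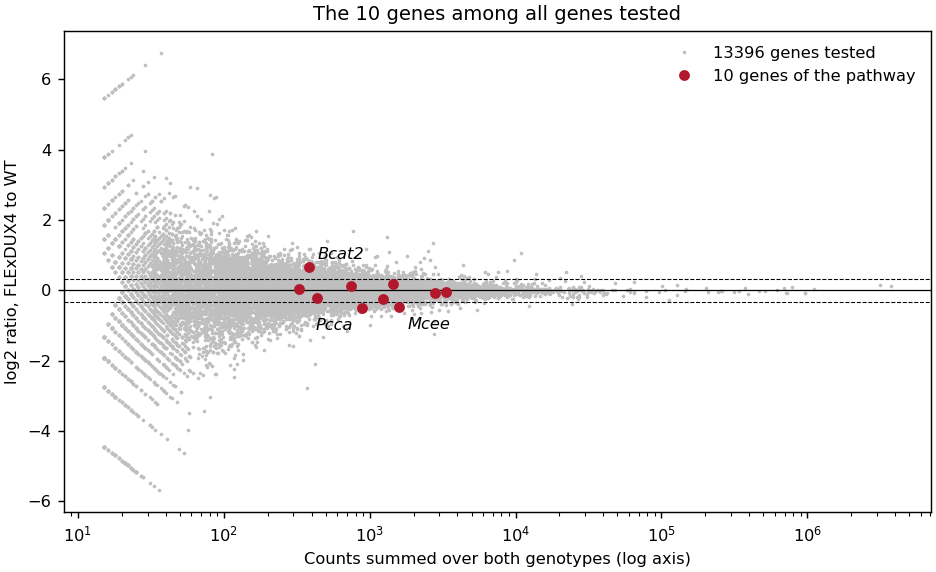
Log2 ratio of the FLExDUX4 to the WT total against the counts summed over both genotypes (log axis) for the 13396 genes tested (grey) and the 10 genes (red), with dashed lines at the threshold of 0.32 in size. The 10 genes lie between 330 and 3327 counts and inside the grey cloud, with Bcat2 above and Pcca and Mcee below the dashed lines.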

How the data were processed

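QuantSeq libraries were made from muscle RNA of 3 FLExDUX4 and 3 WT mice. Per the labels and the study's methods, the authors used cutadapt 1.16 for trimming and STAR 2.5.3a for alignment to GRCm38 joined to ERCC and SIRV sequences, and normalized with DESeq2. The processing notes also name featureCounts 1.6.2. The deposited table holds raw counts for each genotype, taken as sums over libraries, and the authors' mean normalized count (a signal divided by size factors, 59.8 to 506 for the 10 genes), which was above 0 for 1452 of 32783 features at 0 in both totals, so that it was made from more than these totals. Times the number of samples, it had a median ratio of 0.98 to the summed totals over the genes tested. It was not used further. The 6 columns of single libraries match no sample label and were not used, nor were the deposited fold changes and p-values of the authors' own comparison.

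The planned edgeR quasi-likelihood test needs values per sample and was not run. Group totals were scaled by TMM (edgeR 4.0.16, R 4.3.3) over 13396 genes kept by filterByExpr, with 99 spike-ins left out. Log2 ratios used a pseudocount of 0.5. Intervals (95%, Clopper-Pearson for ratios and shares, exact Poisson for CPM, exact conditional odds ratio for pairs, scipy 1.17.1) cover counting error only, and reads carry no stated molecular identifiers. The code was tested on simulated counts. Depth was 13110125 and 18367364 counts on genes, with 43.6% and 42.4% on the top 10 genes. The members and the 19 gene lists were chosen with earlier results of these data known. Named are the 10 genes and list genes past the threshold whose interval leaves out 0, at most 4 by counts in lists outside the pathway. Bcat1, Pecam1, Cdh5, Vwf, Esam, Fabp4, Lep, Cd3e, Pdk3, Acta1 and overlapping genes were named after their values were seen. Coordinates are from GENCODE M21 (GRCm38), whose starts equal the deposited ones.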

Additional observations from a re-analysis of the deposited data

How the results depend on the processing

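No paired analysis was possible because single libraries could not be tied to a genotype. For the same reason DESeq2, edgeR tests and leaving out each replicate were not run. The 10 genes all kept the sign of their log2 ratio under 6 settings: scaling by RLE, upper quartile or gene totals (shifts of all genes of 0.001, -0.016 and -0.03, too small to turn most signs), no filter, a minimum of 10 counts per total, and a pseudocount of 2. Scaling to mitochondrial markers changed the sign of 1 (Bckdk, 0.016) and left 5 pathway genes lower. Spike-in scaling changed 3, namely Pccb (-0.092), Dbt (-0.143) and Mmaa (-0.235), by its shift of -0.276 alone.

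Counts past the threshold (log2 ratio of 0.32 in size) moved as follows. With spike-in scaling, lower genes were 5 of the 10 (2 with TMM), 14 in the pathway (7 with TMM, with 4 in place of 5 higher) and 6034 of all genes (3059 with TMM), with 1729 of all genes higher (3034 with TMM). Without a filter, 6383 of all genes were lower and 5656 higher, since more low-count genes entered. A pseudocount of 2 left 6 pathway genes lower, in place of 7. At 1.5-fold, 0 of the 10 genes and 1 pathway gene were lower, and 1813 of all genes were lower and 1771 higher. Called by the counting interval, 2 of the 10 genes (1 by fold) and 11 pathway genes (5 by fold) were higher. Depth limits the low genes most, as for Mmaa, whose interval spans -0.29 to 0.36.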

Other observations

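The pyruvate and oxoglutarate dehydrogenase complexes share their architecture, and in part their dehydrogenase subunit, with BCKDH. Of 12 genes of these complexes and their kinases and phosphatases, 3 were higher and 1 was lower past the threshold of 0.32 in size. Among all genes tested, 22.6% were higher and 22.8% lower. The median log2 ratio of the 12 genes was -0.01. With the spike-ins 1 of the 12 was higher and 4 were lower, with a median of -0.28. Pdk4, the pyruvate dehydrogenase kinase induced by fasting, had 5470 counts in FLExDUX4 and 4329 in WT and a ratio of 0.85 (interval 0.80 to 0.91). Pdp1, a phosphatase that activates pyruvate dehydrogenase and so has the role that Ppm1k has for BCKDH, had 381 and 717 counts and a ratio of -0.39 (interval -0.58 to -0.21). Its partner Pdp2 had 129 counts in each total and a ratio of 0.52 (interval 0.15 to 0.88). For Pdp2 the authors' mean, times the number of samples, was 1.46 times its summed totals. The third higher gene, Pdk3, had only 16 and 18 counts, and its interval held 0. These are values of 1 total per genotype, with no test across mice.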
